A study of Mus musculus with 7 samples.

Results

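The comparison described here is the Flag ChIP-seq of Hdac6 in mouse embryonic stem cells (ESCs) upon Tip60 knockdown (KD) against the same ChIP upon GFP KD. Its members were chosen by their titles and are 2 of the 7 samples of the series, 1 per condition, so no replicate spread could be measured and no test between the conditions was possible. Both samples come from Hdac6-H3F ESCs of the E14 line, in which the endogenous *Hdac6* gene was tagged so that its protein ends in histidine and Flag epitopes, together called H3F. The cells were infected with lentivirus that expresses a short hairpin RNA against GFP, which ESCs do not express, or against Tip60, and were crosslinked 72 hr after infection. Both shared the tagged allele and the infection, and the labels do not say whether the line is 1 clone. The labels of the second sample disagree: its title reads Tip60 KD, while its genotype field reads Hdac6 KD. The study's main text describes the Hdac6 ChIP as made in control and Tip60 KD cells, while a legend names both knockdowns. The sample is called the Tip60 KD library below after its title. Its Flag signal at promoters was 0.144 ppm, against 0.140 ppm upon GFP KD and 0.0765 ppm in untagged cells after scaling. ChIP signal does not measure mRNA or protein, and the knockdown was not checked directly here.

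Tip60 (encoded by *Kat5*) is the histone acetyltransferase of the Tip60-p400 complex, in which p400 (encoded by *Ep400*) is an ATP-dependent chromatin remodeler. In ESCs the complex occupies the promoters of active genes and of genes that are silent until differentiation. Hdac6 is a class II deacetylase, best known for its work on tubulin in the cytoplasm of differentiated cells. It also carries a zinc finger that binds ubiquitin. The comparison asks whether Hdac6 stays at promoters when Tip60 is lost, and whether it does so alike at all kinds of genes.

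Each file gives coverage at 201 positions from −2000 to 2000 bp around the transcription start site (TSS) of 36733 rows, 1 row per TSS, in ppm of normalizing reads. All values were whole multiples of the value of 1 read within a tolerance of 0.02 steps, which corresponds to 11586222 normalizing reads upon GFP KD and 9226745 upon Tip60 KD. Within 500 bp of the TSS, here the promoter window, a row held a median of 10.2 reads upon GFP KD and 8.22 upon Tip60 KD. The middle 50% of rows ranged from 5.52 to 15.8 reads and from 4.18 to 12.9 reads. This depth resolved small changes in averages over many rows but at single promoters left intervals several-fold wide. Isolated reads spanned 148.4 and 148.5 bp in these files against 298.7 bp in the file of untagged ESCs, in which Flag ChIP measures background, so untagged values below were scaled down by the factor of 2.01. Changes are given with exact 95% Clopper-Pearson intervals on the split of reads between the libraries. These intervals cover counting error only, and are too narrow for sums over rows that lie close together and share reads.

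Averaged over groups of rows, Hdac6 signal was higher at promoters rich in CG dinucleotides. The sequences upstream of a few TSSs show the range of CG numbers, and reads at these single genes do not establish the relation. For each, the row of the gene with the most reads was taken and the 150 bases before its TSS are printed in mm9 on the strand of the gene, with each CG in capitals. *Rps9* encodes a ribosomal protein (chr7:3655493-3655642, plus strand, 16 CG). *Cdkn1a* encodes the cell cycle inhibitor p21 (chr17:29230570-29230719, plus strand, 11 CG), and *Kat5* encodes Tip60 itself (chr19:5610030-5610179, minus strand, 7 CG). *Olfr1* is an olfactory receptor gene (chr11:73209523-73209672, minus strand, 1 CG) and was chosen after its values were seen. Over all rows the median was 4 CG in these 150 bases, 86.2% of rows held at least 1 and 32.1% held at least 10. CG reads the same on both strands.
Rps9: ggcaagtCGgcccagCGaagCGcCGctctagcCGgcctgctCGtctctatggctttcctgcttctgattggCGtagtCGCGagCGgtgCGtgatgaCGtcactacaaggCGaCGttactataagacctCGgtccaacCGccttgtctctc
Cdkn1a: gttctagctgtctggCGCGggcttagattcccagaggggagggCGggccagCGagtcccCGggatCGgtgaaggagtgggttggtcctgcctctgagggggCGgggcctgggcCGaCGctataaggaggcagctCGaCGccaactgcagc
Kat5: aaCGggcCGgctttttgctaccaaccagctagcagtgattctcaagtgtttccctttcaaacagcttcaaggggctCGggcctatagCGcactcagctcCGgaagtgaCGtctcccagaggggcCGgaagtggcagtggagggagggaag
Olfr1: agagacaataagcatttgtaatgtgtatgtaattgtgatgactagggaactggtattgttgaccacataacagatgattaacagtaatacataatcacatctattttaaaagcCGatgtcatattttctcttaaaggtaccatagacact

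In the promoter windows of these rows, *Rps9* had 16 reads upon GFP KD and 10 upon Tip60 KD, and *Cdkn1a* had 21 and 21. *Kat5* had 18 and 11 reads, and *Olfr1* had 8 and 7. Counting intervals of the ratio, after normalization, held 1 for *Rps9* (0.318 to 1.84), *Cdkn1a* (0.653 to 2.42) and *Kat5* (0.328 to 1.72).

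Averaged over all rows, the promoter window held 0.140 ppm of Hdac6 signal in the control and 0.144 ppm upon Tip60 KD, a difference of 2.47% (2.00 to 2.94). The scaled untagged signal was 0.0765 ppm. Hdac6 signal was highest downstream of the TSS, and from −100 to 300 bp the values were 0.159 and 0.164 ppm, 3.38% higher upon Tip60 KD (2.69 to 4.07). Upstream, from −600 to −200 bp, they were 0.117 and 0.119 ppm, 1.38% higher (0.595 to 2.18). In the flanks, 1500 to 2000 bp from the TSS on either side, they were 0.0878 and 0.0877 ppm, a difference of −0.121% (−0.694 to 0.456). The interval of the flanks held 0, while those of the other 3 windows did not. After subtraction of the flank signal the promoter difference was 6.80%, and after subtraction of the scaled untagged signal it was 5.43%. With both libraries set to the same total within 2000 bp it was 1.47%.

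The shape of the profile was nearly the same in both libraries. The maximum lay at 80 bp upon GFP KD, with 0.170 ppm, and at 100 bp upon Tip60 KD, with 0.176 ppm. After smoothing over 100 bp it lay at 100 bp in both libraries. The width at the mid height between flank and maximum was 700 and 660 bp. Downstream signal was 1.35 times upstream signal upon GFP KD and 1.38 times upon Tip60 KD. Across the 201 positions the change ran from −1.79% at 2000 bp to 4.62% at 180 bp, and the mean profiles correlated with r = 0.9995, over positions that share reads.

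**Figure D1:**
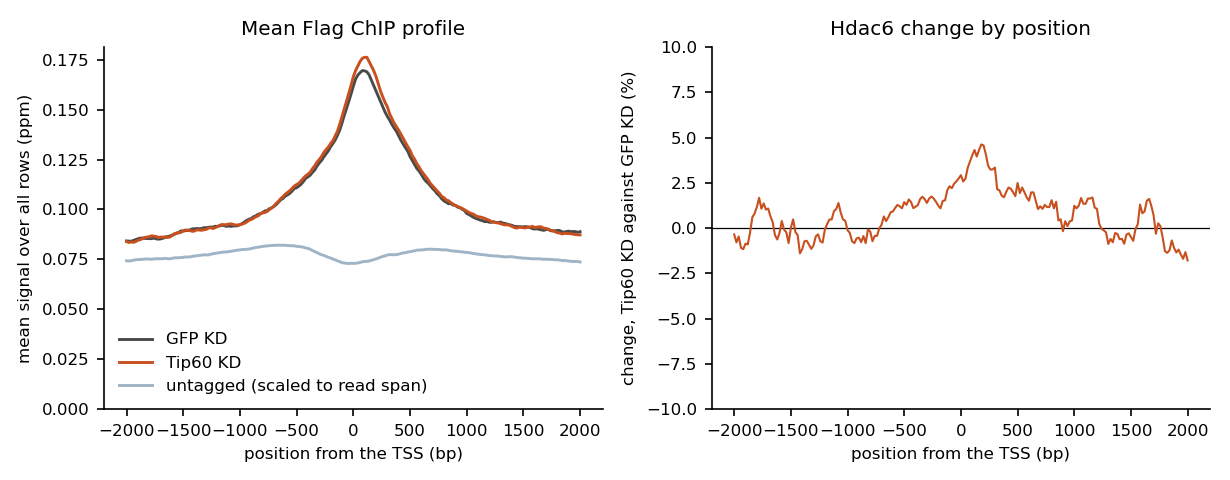
Left, mean Flag ChIP signal (ppm) against position from the TSS (bp) over 36733 rows, for Hdac6 upon GFP KD (dark), upon Tip60 KD (orange) and for untagged ESCs scaled to the same read span (light). Right, the percent change of the mean Hdac6 signal by position; the curves for Hdac6 nearly coincide, and the change is highest, 4.62%, at 180 bp.

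Row by row, the libraries differed about as much as counting of reads predicts. Of the 36733 rows, signal was higher upon Tip60 KD in 18541, lower in 17367 and equal in 825. Among the 17287 rows with at least 20 reads in both libraries together, 478 rows (2.77%) were at least 2-fold lower upon Tip60 KD and 595 rows (3.44%) at least 2-fold higher, with 0.5 reads added to either count. The 95% counting interval of a row lay below the ratio of all rows in 267 rows (1.54%) and above it in 312 rows (1.8%). The log2 change had a median of 0.05, with 5% of rows below −0.84 and 5% above 0.90. For rows with 20 to under 80 reads the SD of the log2 change was 0.538, and counting alone gives 0.54. The variance of the read split, taken around the split over all rows, was 0.999 times the binomial variance. Reads cut by the window edge count in part, which under even coverage brings this ratio to 0.951 where nothing differs but the counts.

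The other ChIP pairs of the series had a wider spread under the same calculation. They share no sample with the Hdac6 pair or each other, and compare Hdac6 KD with GFP KD. Per the study, the Tip60 ChIP was made in Tip60-H3F ESCs, a different tagged line. The p400 ChIP used an antibody against endogenous p400. The pairs therefore differ in target and knockdown, and in tagged line or antibody, and the part of each in the spread was not tested. In the Tip60 ChIP the variance was 1.83 times the binomial variance, and in the p400 ChIP 2.05 times, against 0.902 from reads of their longer span cut at the edge. Mean promoter signal changed by −15.1% upon Hdac6 KD for Tip60 and by −31.3% for p400. For Tip60, 14.5% of 20460 rows were at least 2-fold lower and 5.08% at least 2-fold higher, and intervals lay below the ratio of all rows in 5.5% and above it in 6.31%. For p400, 21.9% of 20269 rows were at least 2-fold lower and 1.9% at least 2-fold higher, and intervals lay below in 6.9% and above in 8.39%. Reads per row differ among the pairs, but Hdac6 had the lowest ratio at matched read numbers too. From 20 to under 30 reads the ratio was 0.973 for Hdac6, 1.72 for Tip60 and 1.89 for p400. From 50 to under 80 reads it was 1.05, 2.32 and 2.16. A mean change that shifts with read number adds to this ratio. For p400 the median log2 change was −0.12 in the former bin and −0.78 in the latter. The SD of the log2 change from 20 to under 30 reads was 0.58 for Hdac6, 0.804 for Tip60 and 0.691 for p400. Counting alone gives 0.586, 0.606 and 0.584.

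**Figure D2:**
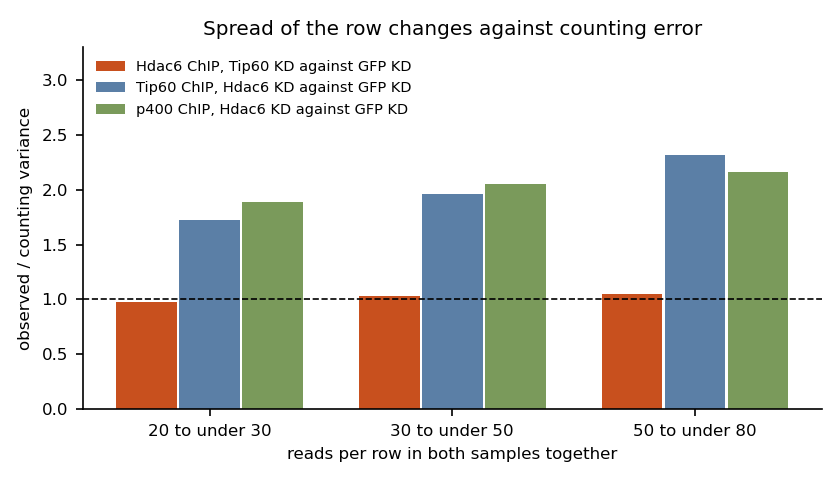
Variance of the split of reads between knockdown and control, divided by the binomial variance (dashed line at 1), for rows binned by their reads in both samples together. The variance is taken around the split over all rows. Bars for Hdac6 (orange) lie between 0.973 and 1.05, and bars for Tip60 and p400 between 1.72 and 2.32.

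Hdac6 was measured across promoter classes defined on samples outside the comparison. Among rows with a RefSeq identifier, the 10% with the most p400 signal upon GFP KD had the highest Hdac6, 0.237 ppm upon GFP KD and 0.247 ppm upon Tip60 KD, a change of 3.97% (2.51 to 5.44). The next 20% changed by 3.50% (2.39 to 4.61) and the middle 30% by 3.47% (2.49 to 4.45). The last 40%, with 0.0866 ppm upon GFP KD, changed by 1.37% (0.183 to 2.56). Classes by Tip60 signal ranged from 1.54% to 3.05%. The intervals of neighbouring p400 classes overlapped throughout. After flank subtraction the last 40% changed by 6.26% and the top 10% by 6.73%. In the most p400-rich class the maximum stood at 120 bp in both libraries, and the promoter over flank ratio was 2.38 and 2.47. None of the 4 p400 classes was lower upon Tip60 KD.

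Promoters were also grouped by how Tip60 and p400 changed upon Hdac6 KD. Rows with at least 20 Tip60 reads were ranked into 5 equal groups by their Tip60 change upon Hdac6 KD, and Hdac6 changed by 1.98% to 3.21% across them. The group with the lowest Tip60 change had 3.21% (2.00 to 4.44), and the group with the highest Tip60 change had 2.45% (1.08 to 3.84). Ranked by the p400 change upon Hdac6 KD, Hdac6 changed by 5.18% (3.97 to 6.41) where the p400 change was lowest. It changed by −0.662% (−2.16 to 0.861) where the p400 change was highest. These groups also differed in CG content, with a mean CpG observed over expected ratio of 0.748 and 0.276, and the part of CG content in that difference was not tested.

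The widest differences between classes were those by base composition. Rows were split into 5 equal groups by the GC content of the promoter window. Hdac6 signal upon GFP KD was 0.0531 ppm in the group with the lowest GC content, below its scaled untagged signal of 0.0627 ppm, and 0.224 ppm in the highest, against 0.0723 ppm. The change upon Tip60 KD was 1.78% (0.0936 to 3.49) in the lowest group, −1.55% (−2.80 to −0.300) in the next, then 0.430% (−0.587 to 1.46), 2.09% (1.20 to 3.0) and 5.94% (5.09 to 6.79) in the highest. Groups by CpG observed over expected ratio showed the same order from the second group on, from −1.82% (−3.01 to −0.610) to 5.86% (4.99 to 6.73). In the GC-richest group the downstream window was 7.53% higher (6.26 to 8.81) and the flanks 1.28% higher (0.0576 to 2.51). Division by the ratio of the libraries in flank windows of matched GC content, an alternative added after the data were seen, left 3.46% in this group. The group had a mean GC content of 66.7%. For windows of at least 60% GC the flank ratio came from 83 rows, 2.40% higher upon Tip60 KD (−5.59 to 10.9). This ratio is too imprecise to say how much of the change remains. After flank subtraction the change of the second group turned from −1.55% to 3.67%. A difference in base composition between the libraries and a difference in binding cannot be told apart with 1 sample a side. In the same GC groups Tip60 upon Hdac6 KD went from 3.21% to −27.9% and p400 from −7.06% to −43.6%.

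**Figure D3:**
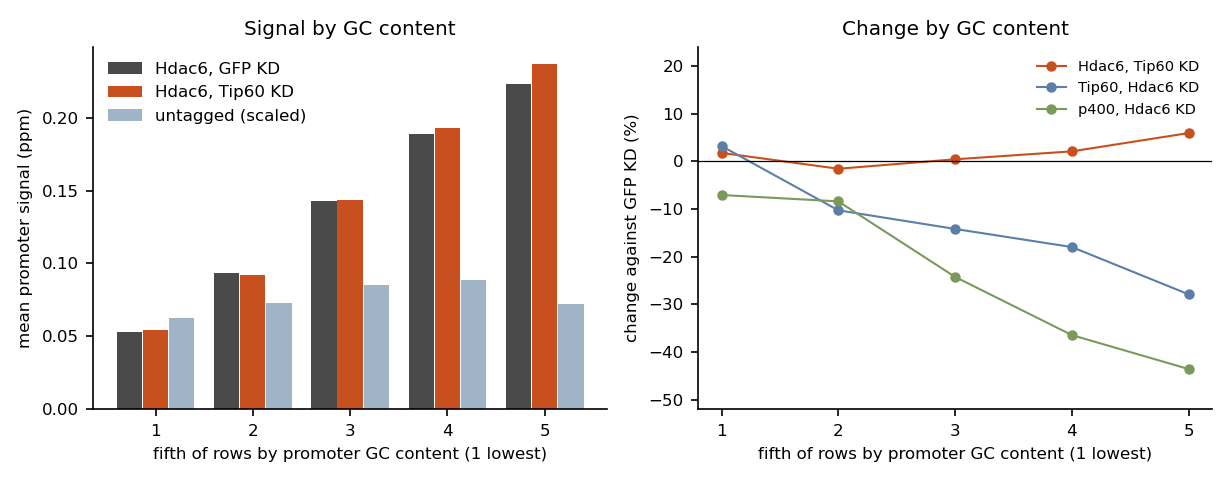
Left, mean promoter signal (ppm, bars from 0) of Hdac6 upon GFP KD and Tip60 KD and of the scaled untagged control in 5 equal groups of rows by promoter GC content. Right, percent change against GFP KD for Hdac6 upon Tip60 KD, and for Tip60 and p400 upon Hdac6 KD, in the same groups. In the GC-richest group Hdac6 was 5.94% higher and Tip60 and p400 changed by −27.9% and −43.6%.

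Other classes stayed within a few percent. Rows in a divergent pair, with a TSS on the opposite strand within 1000 bp, had nearly equal signal on both sides of the TSS, with a downstream over upstream ratio of 1.07 upon GFP KD and 1.06 upon Tip60 KD, and changed by 3.80% (2.46 to 5.15). Rows with a RefSeq identifier changed by 3.07% (2.50 to 3.65) and the others by 1.26% (0.455 to 2.07). On the X chromosome, Hdac6 was lower in both libraries, 0.0618 and 0.0612 ppm, and so was the scaled untagged signal, 0.0404 ppm. Its change was −0.932% (−4.57 to 2.87). Within each class with at least 100 rows of 20 to under 80 reads, the variance of the read split lay between 0.945 and 1.08 times the binomial variance.

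**Figure D4:**
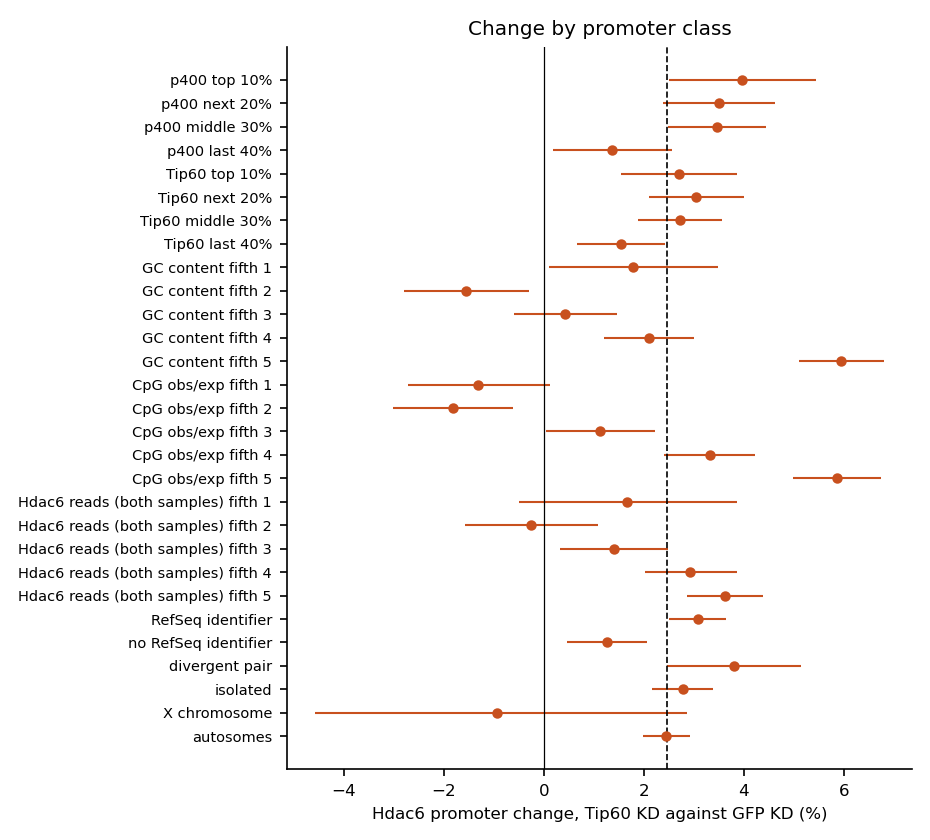
Percent change of Hdac6 promoter signal upon Tip60 KD by promoter class, with exact 95% counting intervals. The solid line is 0 and the dashed line the change over all rows, 2.47%; classes run from −1.82% to 5.94%.

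Gene families were compared by 30 lists, of which the rows of a list were summed. The change of a list ranged from −16.9% to 13.5%, and its interval held the change of all rows in 24 of 30 lists. Medians of the log2 change were above that of all rows (0.05) in 15 lists and below in 14. The lists named in this paragraph, most of them of housekeeping genes, had intervals that held 0 when all rows of a list were summed. The list of translation initiation and elongation factor genes, given below, did not. Cytosolic ribosomal protein genes had 0.207 ppm upon GFP KD and 0.222 ppm upon Tip60 KD (7.02%, −0.367 to 14.9). With 1 row per gene they changed by 8.96% (0.665 to 17.9), an interval that left out 0 but held the change of all rows. Of their 85 rows with at least 20 reads, 0 were 2-fold lower and 1 was 2-fold higher, beside 2.77% and 3.44% of all rows tested, and with so few rows these counts say little about the family. Mitochondrial ribosomal protein genes changed by −2.50% (−10.7 to 6.46), respiratory chain and ATP synthase genes by −1.07% (−8.43 to 6.78), splicing factor genes by 3.06% (−5.20 to 12.0), and chaperone and heat shock genes by 0.685% (−6.85 to 8.92). Proteasome subunit genes changed by 7.92% (−4.90 to 22.4), RNA polymerase, Mediator and general transcription factor genes by −4.0% (−11.0 to 3.55), and DNA repair genes by 0.523% (−9.36 to 11.4). Replication-dependent histone genes changed by 6.88% (−5.41 to 20.8), the 267 Zfp zinc finger genes by 0.842% (−3.40 to 5.30), and the 339 solute carrier genes by 3.43% (−0.484 to 7.46).

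In several families with large negative changes of Tip60 and p400 upon Hdac6 KD, the interval of the Hdac6 change upon Tip60 KD held 0. Aminoacyl-tRNA synthetase genes, whose products charge tRNAs, had a Tip60 change of −54.7% and a p400 change of −60.0%, while Hdac6 was 0.223 and 0.208 ppm (−6.73%, −21.0 to 9.42). Amino acid transport and stress response genes, such as *Shmt2* of one-carbon metabolism, had a Tip60 change of −49.6% and a p400 change of −59.3%, while Hdac6 was 0.237 and 0.243 ppm (2.65%, −9.27 to 16.0). p53 target genes had a Tip60 change of −33.9% and a p400 change of −54.5%, with Hdac6 at 0.227 and 0.215 ppm (−5.39%, −17.4 to 8.21). Translation initiation and elongation factor genes had a Tip60 change of −28.1% and a p400 change of −48.5%, but their Hdac6 interval lay above 0 (4.67 to 23.0). These percentages come from different ChIPs and knockdowns and are set side by side without a test.

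In 3 lists the interval lay above the change of all rows. Translation initiation and elongation factor genes were at 0.202 and 0.229 ppm, 13.4% higher (4.67 to 23.0). Among them *Eef1b2*, an elongation factor subunit, had 8 reads upon GFP KD and 20 upon Tip60 KD, and *Eef2*, the ribosomal translocase, had 24 and 9. Cyclin, cyclin-dependent kinase and replication licensing genes were 13.5% higher (2.72 to 25.4), from *Orc5l*, an origin recognition subunit with 23 and 9 reads, to *Ccnk*, a transcriptional cyclin with 7 and 14. Forkhead, Sox and T-box genes, transcription factors of development, were 12.0% higher (2.75 to 21.9), with *Foxm1* at 12 and 24 reads and *Sox17* at 16 and 6. With 1 row per gene the cyclin and licensing list was 10.4% higher with an interval that held the change of all rows (−1.32 to 23.5). At least 2-fold higher were 3 of 66 rows of the translation list, 4 of 41 of the cyclin list and 3 of 56 of the Forkhead list, against 3.44% of all rows tested.

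In 3 other lists the interval lay below the change of all rows. Clustered protocadherin genes, adhesion molecules of neurons, were near background, with 0.0860 and 0.0715 ppm against 0.0837 ppm in the scaled untagged sample (−16.9%, −29.3 to −2.53). Germline genes silent in ESCs were at 0.192 and 0.164 ppm (−14.4%, −26.3 to −0.689), with *Dazl* and *Zp3*, the zona pellucida glycoprotein, as lowest and highest. *Zp3* had 9 and 18 reads. The genes that the study followed by ChIP-qPCR or RT-qPCR, a list the study picked with its own data in view, were at 0.179 and 0.156 ppm (−12.8%, −23.1 to −1.39). With 1 row per gene the latter pair of lists had intervals that held the change of all rows, −24.2 to 4.19 and −19.2 to 8.86.

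**Figure D5:**
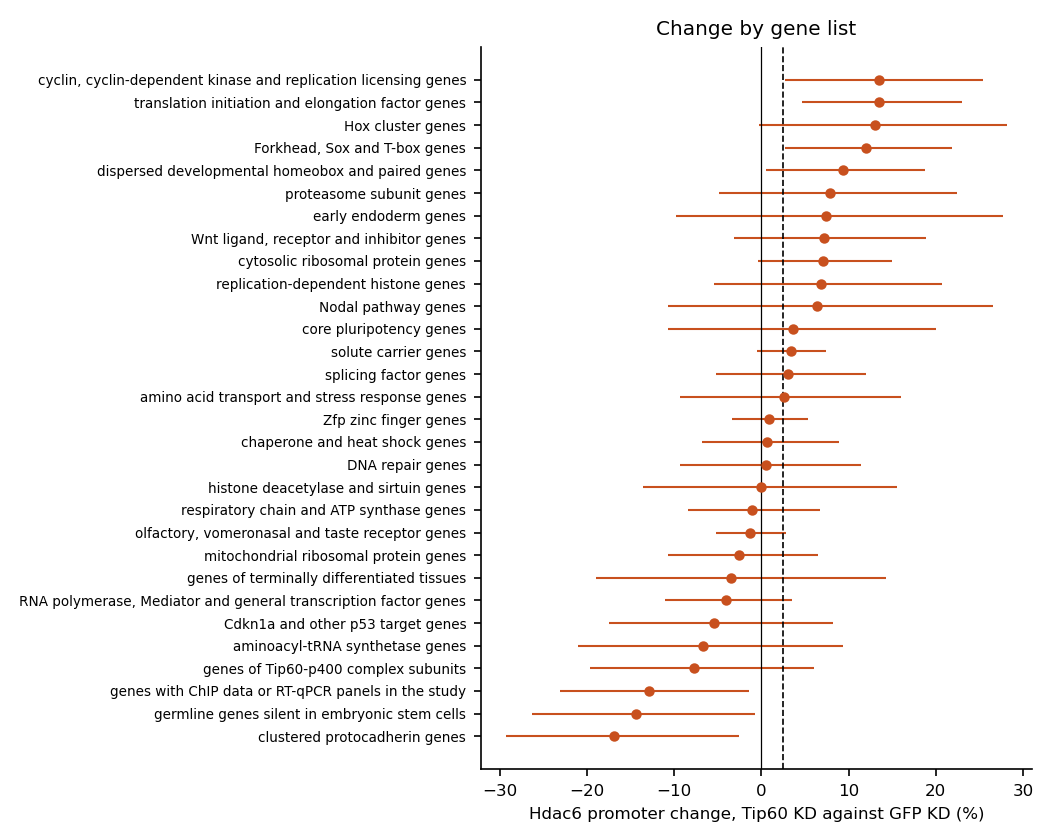
Percent change of Hdac6 promoter signal upon Tip60 KD summed over each of 30 gene lists, with exact 95% counting intervals. The solid line is 0 and the dashed line the change over all rows, 2.47%; 24 of 30 intervals hold the dashed line.

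The 5 lists of developmental regulators named next had changes above that of all rows, with intervals that held it. Hox cluster genes had 0.155 and 0.176 ppm (13.04%, −0.278 to 28.2), with *Hoxd10* at 14 and 7 reads and *Hoxc11* at 9 and 19. Dispersed homeobox and paired genes had 0.170 and 0.186 ppm (9.37%, 0.567 to 18.8). Wnt pathway genes changed by 7.23% (−3.16 to 18.9), Nodal pathway genes by 6.43% (−10.7 to 26.6) and early endoderm genes by 7.46% (−9.73 to 27.7). Core pluripotency genes were at 0.159 and 0.165 ppm (3.68%, −10.7 to 20.0), and 0 of their 17 rows with at least 20 reads were 2-fold lower or higher, which at the shares of 2.77% and 3.44% over all rows says nothing particular to them. Of these rows the lowest was *Lin28a*, an RNA-binding protein gene, with 15 and 9 reads (log2 change −0.36), and the highest was *Sox2*, a transcription factor gene, with 10 and 13 (0.76). Among other genes that define ESCs, *Pou5f1* had 21 and 19 reads, *Nanog* 17 and 16, *Klf4* 20 and 20, and *Esrrb* 23 and 18. Genes of terminally differentiated tissues, the markers of other cell types, were at 0.119 and 0.115 ppm, and ChIP signal at either list does not check the identity of the cells. Olfactory, vomeronasal and taste receptor genes, silent in ESCs, were at 0.0491 and 0.0485 ppm, below their scaled untagged signal of 0.0528 ppm (−1.27%, −5.22 to 2.87).

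Genes of Tip60-p400 subunits were at 0.204 and 0.189 ppm (−7.67%, −19.6 to 6.08). *Ep400* was their lowest member, with 30 reads upon GFP KD and 11 upon Tip60 KD, a ratio with an interval of 0.208 to 0.945. The highest was *Epc2*, which encodes a scaffold subunit, with 14 and 18 reads. Histone deacetylase and sirtuin genes were at 0.192 ppm in both libraries (−0.00956%, −13.5 to 15.6). The *Hdac6* promoter itself had 14 and 6 reads (ratio interval 0.170 to 1.49), and *Sirt5*, a mitochondrial deacylase, had 14 and 25 (1.12 to 4.67).

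Rows in the study's own panel illustrate the depth at single genes. *Lefty2*, an antagonist of Nodal, had 19 and 6 reads, *Nodal* itself 20 and 13, *Scamp1* 31 and 17, and *Rpl27a* 19 and 21. *Gata4*, an endoderm transcription factor, had 12 and 15, and *Foxa2* had 12 and 14. For all of these the interval of the ratio held 1. The lowest log2 change was −1.19 for *Lefty2* (ratio 0.130 to 1.03) and the highest among those with at least 20 reads was 0.68 for *Sox11* (0.661 to 4.16).

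Some of these genes have designed ChIP-qPCR amplicons, and their primers are shown because they fix the loci that ChIP-qPCR reads. The *Cdkn1a* amplicon (mm9 chr17:29235359-29235513) lies in a coding exon and the *Rps9* amplicon (chr7:3655820-3656043) spans untranslated and coding sequence. The *Speer2* amplicon (chr16:69862015-69862328) lies in the gene outside its exons.
Cdkn1a forward: aatcctggtgatgtccgacctgtt
Cdkn1a reverse: gtgacgaagtcaaagttccaccgt
Rps9 forward: tctaaggcggatttctctgagag
Rps9 reverse: ctttagctcctggtcgagacg
Speer2 forward: catgaccttgctctgagtcaagt
Speer2 reverse: caccaatgtagtggctagacactg

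Within 100 bp of the amplicon midpoint, in the row of the gene with the nearest TSS, Hdac6 signal at *Cdkn1a* was 0.345 ppm in the control and 0.564 ppm upon Tip60 KD, which rest on 5.39 and 7.01 reads. At *Rps9* it was 0.293 and 0.141 ppm, from 4.58 and 1.75 reads. At *Speer2* it was 0.0949 and 0.0975 ppm, from 1.48 and 1.21 reads. The *Speer2* midpoint lies 1805 bp from the TSS, and the study used this locus as a negative control for Tip60-p400 binding. The *Cdkn1a* row used here has its TSS at chr17:29235152. It is not the *Cdkn1a* row with 21 and 21 reads, whose TSS is at chr17:29230720. Reads cut by the window count in part. At this depth a change at 1 amplicon was not detectable.

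The promoters with the most Hdac6 reads in both libraries together are given as a description, since they were chosen by these reads. Among 5184 genes with a row of at least 30 reads outside the 1% with the highest untagged signal, the 10 with the most reads had 38 to 60 reads upon GFP KD and 31 to 49 upon Tip60 KD. *Actn2*, which encodes a muscle actinin, had 60 and 49 reads (ratio 1.02, 0.688 to 1.52). *Fasn*, which encodes fatty acid synthase, had 38 and 36, and *Setd1a*, which encodes a histone H3K4 methyltransferase, had 40 and 33. For each of the 10 the interval held 1, and *Hrh3*, a histamine receptor gene with 38 and 47 reads, came closest to leaving it (0.991 to 2.45). Over all rows with at least 20 reads, intervals lay below the ratio of all rows in 1.54% and above it in 1.8%. That all 10 held 1 therefore says nothing particular to them.

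The rows whose counting intervals lay farthest from 1 are given as a description, since they were chosen for their change. The interval lay lowest at *Dazl*, which encodes an RNA-binding protein of germ cells, with 27 reads upon GFP KD and 4 upon Tip60 KD (ratio 0.206, 0.0473 to 0.534). Its signal was 0.340 and 0.0701 ppm, against 0.0918 ppm in the scaled untagged sample. *Akt2*, a kinase gene of insulin signalling, and *Tubb3*, the neuronal tubulin gene, both had 27 and 6 reads. *Timm44*, a mitochondrial import gene, had 30 and 8. *Ddah2*, *Wsb2*, *Cfdp1*, *Accn2* and *Kcnq5* had 26 to 39 reads upon GFP KD and 6 to 12 upon Tip60 KD.

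The interval lay highest, by its lower end, at *H1fx*, a linker histone gene, with 11 reads upon GFP KD and 31 upon Tip60 KD (ratio 3.55, 1.73 to 7.80). *Nipbl*, which encodes the cohesin loader, had 9 and 27, and *Bend3*, a transcriptional repressor gene, had 12 and 32. *Tbl1xr1*, which encodes a subunit of the NCoR corepressor, had 15 and 35, and *Gtf2a1*, which encodes a subunit of TFIIA, had 9 and 23. *Adamts20*, *Emp2*, *Ankrd13a* and *Kcnh2* had 8 to 13 reads upon GFP KD and 23 to 30 upon Tip60 KD. Both sets mixed housekeeping, neuronal and signalling genes, and with 17287 rows compared, rows this far out are read beside the 1.54% and 1.8% of rows whose interval left the ratio of all rows.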

How the data were processed

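The authors' pipeline, per the study's methods and the submitters' processing notes (CASAVA 1.8.2, Bowtie, mm9), collapsed single-end reads by sequence, mapped them with at most 1 mismatch, extended them and summed them around each TSS. Which Bowtie version, normalization and set of TSSs they used is not given in the sources used here. The unit is coverage signal in ppm, which the authors deposited per 20 bp. The stated extension differs from the spans found in some files.

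Reads per window are signal divided by the value of 1 read and by the read span. Window means, percent changes and Clopper-Pearson intervals were computed with Python 3.11.15, numpy 2.4.6, pandas 2.3.3 and scipy 1.17.1, and drawn with matplotlib 3.10.9. No test between conditions was run, with 1 sample a side. The script was checked on simulated reads. Classes came from the p400 and Tip60 files, joined by identifier and order, and from mm9 sequence around the TSS. A row position plus 1 matched an annotated start in 40.4% of rows.

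Named genes are those the study followed, Kat5, Hdac6 and Ep400, the 10 rows with intervals farthest below and above, the lowest and highest of each list (at least 20 reads), of which some are named, and the 10 with the most reads. A few genes that meet these rules are not reported here. Samples, lists and rules were chosen with earlier results of these data known.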

Additional observations from a re-analysis of the deposited data

How the results depend on the processing

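With 1 sample a side, no alternative could address the spread between cultures. No paired analysis was possible because each condition has 1 sample. The promoter change over all rows (2.47%) stayed positive throughout. It was 2.97% from −200 to 200 bp, 1.71% from −1000 to 1000 bp, 6.80% after flank subtraction, 5.43% after untagged subtraction, 1.47% at the same total, 3.34% with 1 row per gene, 3.07% for RefSeq rows, 1.65% as a trimmed mean and 1.92% with the GC-matched flank ratio, which was chosen after the data were seen. In the same order of flank, untagged, total and 1 row per gene, the downstream change was 7.71%, 6.35%, 2.37% and 4.31%. The upstream change was 5.87%, 4.31% and 0.395% for the first 3. The GFP KD maximum lay at 120 bp with 1 row per gene and in the most p400-rich rows.

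At a fold of 1.5 in place of 2, 2010 rows were lower and 2544 higher. Rows at least 2-fold lower and higher were 1459 and 1513 with at least 10 reads. They were 4 and 3 with at least 50, and 274 and 361 with 1 row per gene. After flank subtraction the most p400-rich rows changed by 6.73% and the last 40% by 6.26%. The GC-richest rows changed by 4.91% at the same total, 9.63% after flank subtraction and 3.46% with the GC-matched ratio. The second GC group turned to 3.67% after flank subtraction. The cause of these differences was not tested. The number of lists above all rows (15) ranged from 14 to 16.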

Other observations

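Rows at 0 reads in the promoter window were 883 in both libraries, 381 upon GFP KD alone and 703 upon Tip60 KD alone. The most reads found in the other library for such a row were 11 and 12. Across chromosomes, leaving out the 1% of rows that had most untagged signal, the promoter change ran from −1.23% on X to 5.05% on chromosome 15, and the flank change from −4.02% on chromosome 16 to 2.36% on chromosome 12. Over all rows the promoter signals of the libraries correlated with r = 0.911 across rows and rho = 0.787, and leaving out the 1% of rows that had most untagged signal with r = 0.762 and rho = 0.787. Rows share reads with neighbours and are not independent.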
